A study of Mus musculus with 6 samples.

Results

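Apoe, Trem2, Tyrobp, Lpl, Fabp5, Abca1, Abcg1 and Ch25h are 8 mouse genes of lipid transport and lipid sensing, taken by symbol from the 28692 genes counted in each library. Each symbol matched 1 row. They were followed in live CD45+ cells sorted from dissociated C57BL/6 brain during experimental autoimmune encephalomyelitis (EAE), an induced T-cell-driven disease of the central nervous system used as a model of multiple sclerosis. The tissue is labelled brain, while the extraction protocol also names spinal cord. The groups were miR-155 knockout (KO) mice and wild-type (WT) mice, each on day 0 and on days 13 and 21 of EAE. The series design states 5 mice per group, and there was 1 single-cell 3′ library per group. Cells are not assigned to mice in the files, so within a day the intervals given for KO and WT values cover counting error only, and no difference between mice could be tested. The titles give the pair of libraries of each day a number of its own, so a day and its set of libraries cannot be told apart. The agent used to induce EAE and the age and sex of the mice are left out here, since the labels do not state them.

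Microglia, the resident macrophages of the brain, take up myelin debris and carry its lipids through a short chain of steps. Trem2 is a surface receptor for lipids and lipoproteins, and Tyrobp (DAP12) is the adaptor that passes its signal on. Apoe is the protein that carries cholesterol and phospholipid out of glia in lipoprotein particles, and Lpl is the lipase that frees fatty acids from triglyceride in such particles. Fabp5 binds fatty acids inside the cell. Abca1 and Abcg1 are the transporters that export cholesterol onto Apoe-containing particles, and both are classical targets of the liver X receptors (LXR), which are activated by oxysterols. Ch25h is the enzyme that makes 25-hydroxycholesterol, an oxysterol, from cholesterol. Apoe, Lpl, Trem2, Tyrobp and Fabp5 are also widely described as part of the expression state of microglia in neurodegeneration, in which P2ry12 and Tmem119 are low.

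The deleted microRNA and the matches found in the members are shown here because they mark which genes of the set hold a seed match or an LXR-type repeat. MiR-155-5p (RefSeq, GRCm38.p6, chr16:84714143-84714165, plus strand) is printed with its seed, bases 2 to 8, in capitals. The reverse complement of the seed, AGCATTA, was searched on the transcript strand in the longest 3′ UTR of each member (GENCODE vM21). Lpl held 1 match, 227 bases into a 3′ UTR of 2428 bases at chr8:68904725-68904747 on the plus strand, printed with the match in capitals. The other 7 members held 0 matches in 3′ UTRs of 173 to 3703 bases, against at least 1 match in 1741 of 21004 genes with a 3′ UTR (8.29%). The LXR-type repeat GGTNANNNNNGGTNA was searched on both strands from 250 bases before to 50 bases after the RefSeq start sites available for Apoe, Trem2, Abca1 and Ch25h. Abca1 held 1 match beginning 67 bases before its start (chr4:53159940-53159969, shown along the minus strand of the gene, with the match on the opposite strand), and 236 of 32851 such promoters (0.718%) held one. Apoe (3 start sites), Trem2 and Ch25h held 0 in this window. A match is a run of letters and was not shown here to be bound.
miR-155-5p: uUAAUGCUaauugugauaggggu
Lpl 3′ UTR: ggtcttccAGCATTAgaagacag
Abca1 promoter: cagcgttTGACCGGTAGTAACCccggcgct

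The 6 libraries held 20030 cell barcodes and 6321841 to 24243660 unique molecular identifiers (UMIs), each a counted RNA molecule, and 20007 cells were kept. Mir155hg, the host transcript of miR-155, had 0, 0 and 1 UMIs in the KO libraries of days 0, 13 and 21, against 2, 45 and 59 UMIs in the WT libraries. It had 0 UMIs in microglia-gated cells of all 6 libraries, and the mature microRNA is not counted by this assay. Cells were gated by marker genes, which do not include any member: a cell called microglia had UMIs of at least 5 of 10 microglial markers and of at most 2 markers of any other class, except that neutrophil markers, whose RNA was widespread, had to be at least 2 fewer than the microglial ones. The microglia-gated cells of days 0, 13 and 21 numbered 1211, 431 and 1710 in KO and 1352, 902 and 500 in WT, with a median of 2133 to 3206 UMIs per cell. The summed level of the 10 microglial markers in these cells was 40817, 14850 and 27351 CPM (UMIs per 1000000 UMIs of the class in that library) in KO, and 39477, 18037 and 19096 CPM in WT. Neutrophil markers summed to 729, 6155 and 4375 CPM in KO microglia-gated cells and to 2638, 3115 and 4846 CPM in WT, monocyte/macrophage markers to 60.0, 557 and 136 CPM in KO and 58.2, 375 and 307 CPM in WT, and border-associated macrophage markers to 105 to 187 CPM with Cd163 and Lyve1 at 0 in all 6 libraries. The part of these other-class counts in the changes by day was not tested. Of the cell barcodes, 207 occurred in 2 libraries. They were carried by 129 microglia-gated cells, and leaving those cells out moved no member level above 10 CPM by more than 8.64%.

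Apoe (chromosome 7, 19696109 to 19699188, minus strand, GRCm38) had the largest fitted change of the 8 members between day 0 and each EAE day in microglia. It had 825 CPM in KO and 582 CPM in WT on day 0, 6536 CPM in KO and 10593 CPM in WT on day 13, and 6605 CPM in KO and 11076 CPM in WT on day 21. All 4 EAE libraries lay above both day 0 libraries, and on both EAE days the KO library lay below the WT library. The ratio to day 0 was 7.93 on day 13 and 8.01 on day 21 in KO, against 18.2 and 19.0 in WT, whose day 0 level was the lower one. Across the libraries, edgeR's quasi-likelihood test with genotype and day as terms gave a log2 change of 3.78 ± 0.30 (SE) on day 13 (adjusted p = 8.54e-06) and 3.85 ± 0.30 on day 21 (adjusted p = 3.11e-05) over day 0, with 2 libraries per day.

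**Figure D1:**
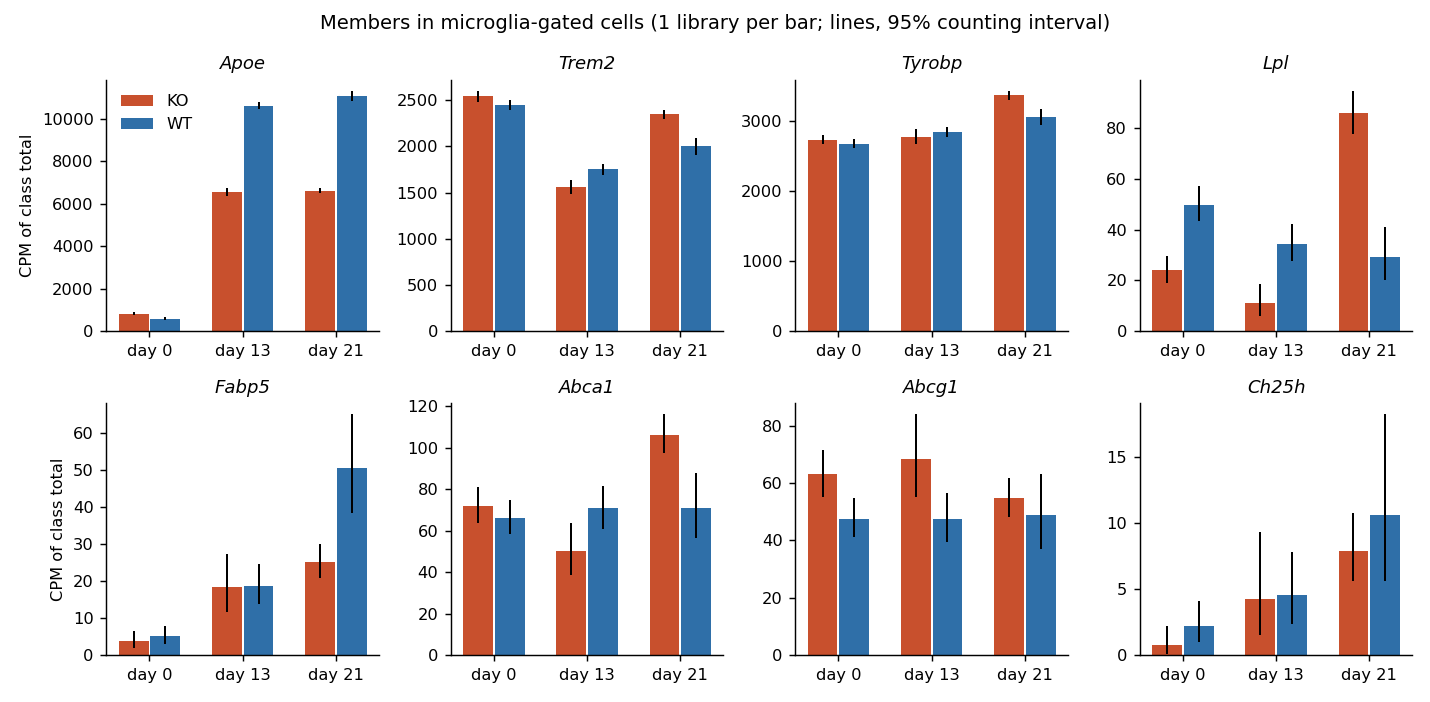
Levels of the 8 genes in microglia-gated cells in CPM of the class total, 1 panel per gene with its own axis, by day. Each bar is a single library, KO in red left of WT in blue, and lines are 95% Poisson intervals that cover counting error only. Apoe, Fabp5 and Ch25h were higher in all 4 EAE libraries than in both day 0 libraries.

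Apoe was also unevenly spread over cells. On day 0 the median microglia-gated cell had 0 UMIs of Apoe in both genotypes, and the top 10% of cells held 88.6% of its UMIs in KO, against 86.4% in WT. On day 13 the median cell had 1025 CPM in KO and 3185 CPM in WT, and on day 21 897 CPM in KO and 5140 CPM in WT. Thinned to 1400 UMIs per cell, the share of microglia-gated cells with an Apoe UMI was 21.1%, 60.8% and 61.2% in KO on days 0, 13 and 21, against 19.6%, 73.3% and 77.4% in WT. Unthinned, these shares were 31.4% and 30.5% on day 0, 71.5% and 81.0% on day 13, and 72.3% and 81.0% on day 21, with KO given first on each day. T cells are not known as a source of Apoe, and thinned T-gated cells had it in 5.97% and 4.95% of KO and WT cells on day 0, 13.8% and 18.0% on day 13, and 23.4% and 17.1% on day 21. The microglial shares on both EAE days lay above those of T cells of the same library.

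Trem2 (chromosome 17, 48346401 to 48354147, plus strand) and Tyrobp (chromosome 7, 30413760 to 30417585, plus strand), the receptor and its adaptor, were detected in most microglia on day 0, and their levels over the 6 libraries spanned 1560 to 2542 CPM and 2672 to 3360 CPM. Trem2 had 2542 CPM in KO and 2450 CPM in WT on day 0, 1560 CPM in KO and 1753 CPM in WT on day 13, and 2345 CPM in KO and 2001 CPM in WT on day 21. Both day 13 libraries were the lowest of the 6, but the change over day 0 did not pass the test (log2 change −0.35, adjusted p = 0.12 by edgeR). It was called without the KO library (−0.35) or the WT library (−0.36) of day 21. Its UMIs were present in 86.1% to 95.8% of thinned microglia-gated cells in every library. Tyrobp had 2724 CPM in KO and 2672 CPM in WT on day 0, 2772 CPM in KO and 2838 CPM in WT on day 13, and 3360 CPM in KO and 3047 CPM in WT on day 21. It rose by 0.51 ± 0.15 on the log2 scale on day 21 over day 0 (adjusted p = 0.0481 by edgeR), a call that was lost with RLE size factors (adjusted p = 0.0501), with DESeq2 (0.0544), with clusters in place of the gate (0.0744), without a small cell cluster led by Folr2, Lpl and Spp1 (0.093), and whenever a library of day 0 or day 13 was left out. Its level in CPM on day 21 was 1.23 times the day 0 level in KO and 1.14 times in WT. The fitted change also carries the library scaling: the factors (TMM) were 1.13 and 1.12 on day 0 and 0.907 to 0.968 in the EAE libraries.

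Of the fatty acid genes, Fabp5 rose and Lpl did not move with day in the same way in both genotypes. Fabp5 (chromosome 3, 10012548 to 10016607, plus strand) had 3.88 CPM in KO and 5.00 CPM in WT on day 0, 18.4 CPM in KO and 18.7 CPM in WT on day 13, and 25.1 CPM in KO and 50.6 CPM in WT on day 21. These levels rest on 16 to 131 UMIs per library. The log2 change over day 0 was 2.24 ± 0.33 on day 13 (adjusted p = 0.000471) and 3.25 ± 0.29 on day 21 (adjusted p = 7.06e-05 by edgeR). Fabp5 was also found in neutrophil-gated cells (31.1 to 124 CPM) and in monocyte/macrophage-gated cells (79.4 to 176 CPM). Markers of both classes were present in the microglia-gated sums, and their part in the Fabp5 level was not tested. Lpl (chromosome 8, 68880491 to 68907448, plus strand) had 24.03 CPM in KO and 49.97 CPM in WT on day 0, 11.3 CPM in KO and 34.4 CPM in WT on day 13, and 86.1 CPM in KO and 29.4 CPM in WT on day 21. KO was the lower library on days 0 and 13 and the higher on day 21, so the order of the genotypes changed. No day contrast of Lpl passed (day 21 over day 0, log2 change 1.15 ± 0.44, adjusted p = 0.11; day 21 over day 13, 1.48 ± 0.51, adjusted p = 0.21 by edgeR). Without the WT library of day 21 both did, at 2.15 and 2.59, as they did without the WT library of day 13 (1.05 and 2.55). Without the WT library of day 0 the first alone did (1.70), and without the KO library of day 21 they were −0.52 and −0.08, with no call. On day 13 over day 0 the change of −0.33 (adjusted p = 0.66) was called as lower when clusters replaced the gate (−0.86, adjusted p = 0.0392 by edgeR).

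Of the cholesterol exporters, Abca1 passed 1 day contrast and Abcg1 passed 0. Abca1 (chromosome 4, 53030787 to 53159895, minus strand), which loads cholesterol onto lipid-poor apolipoprotein, had 72.1 CPM in KO and 66.3 CPM in WT on day 0, 50.2 CPM in KO and 70.8 CPM in WT on day 13, and 106 CPM in KO and 71.0 CPM in WT on day 21. The KO library of day 21 was the highest, and the other 5 overlapped across days. Its rise on day 21 over day 0 (log2 change 0.66 ± 0.19, adjusted p = 0.0422 by edgeR) was lost with DESeq2 (0.63, adjusted p = 0.27) and without that KO library (0.28, adjusted p = 0.39). It was also lost without either day 0 library (0.67 without KO and 0.60 without WT) and without the cluster led by Folr2 (0.61, adjusted p = 0.0685). Abcg1 (chromosome 17, 31057675 to 31117988, plus strand, with the small gene Gm25447 inside it), which exports cholesterol to larger particles, ranged from 47.6 to 68.6 CPM and passed no day contrast. Ch25h (chromosome 19, 34473778 to 34475164, minus strand, overlapped on the other strand by Gm26902) was the rarest member, with 3, 6 and 41 UMIs in KO on days 0, 13 and 21, against 10, 13 and 13 in WT. In CPM it was 0.728, 4.24 and 7.86 in KO on the same days, against 2.17, 4.51 and 10.6 in WT. Both day 21 libraries lay above both day 13 libraries, which lay above both day 0 libraries, but few cells carried these UMIs. Of the day 21 UMIs, 22 of 41 in KO lay in the cluster led by Folr2, and without that cluster the KO level was 4.03 CPM on day 21 and 4.27 CPM on day 13. In WT, 7 of 13 lay in 1 of 10 microglia-gated cells of a cluster led by Cenpf. The log2 change over day 0 was 1.74 ± 0.55 on day 13 (adjusted p = 0.0355) and 2.92 ± 0.48 on day 21 (adjusted p = 0.00204 by edgeR). The day 13 call was lost with DESeq2 (1.89, adjusted p = 0.15) and without any 1 of the day 0 or day 13 libraries (1.35 to 2.53).

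Counted together, 3 of the 8 members passed the test as higher on day 13 over day 0 and 0 as lower, where 16.6% of the 9998 genes tested were higher and 12.8% lower. On day 21 over day 0, 5 members passed as higher and 0 as lower, where 9.34% of all genes were higher and 4.17% lower. The members without a call on day 13 were Trem2, Tyrobp, Lpl, Abca1 (log2 change 0.094) and Abcg1 (log2 change 0.29). On day 21 they were Trem2 (log2 change 0.06), Lpl and Abcg1 (log2 change 0.13). In CPM, Trem2 on day 21 was 0.92 times its day 0 level in KO and 0.82 times in WT. Its fitted change also carries the library scaling. The 2 contrasts share the day 0 libraries. From day 13 to day 21, 0 members passed at an adjusted p of 0.05 (0.900% of all genes), with Fabp5 at 1.01 (adjusted p = 0.11) and Trem2 at 0.41 (adjusted p = 0.26) on the log2 scale by edgeR. The others were at 0.069 for Apoe, 0.21 for Tyrobp, 1.48 for Lpl, 0.56 for Abca1, −0.16 for Abcg1 and 1.18 for Ch25h. The unadjusted p was under 0.05 for 5 members and 1451 genes. Fabp5 was called without the KO library of day 21 (1.45), Trem2 (0.52) without the WT library of day 21, and Abca1 without the WT library of day 13 (0.99) or day 21 (0.82).

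**Figure D2:**
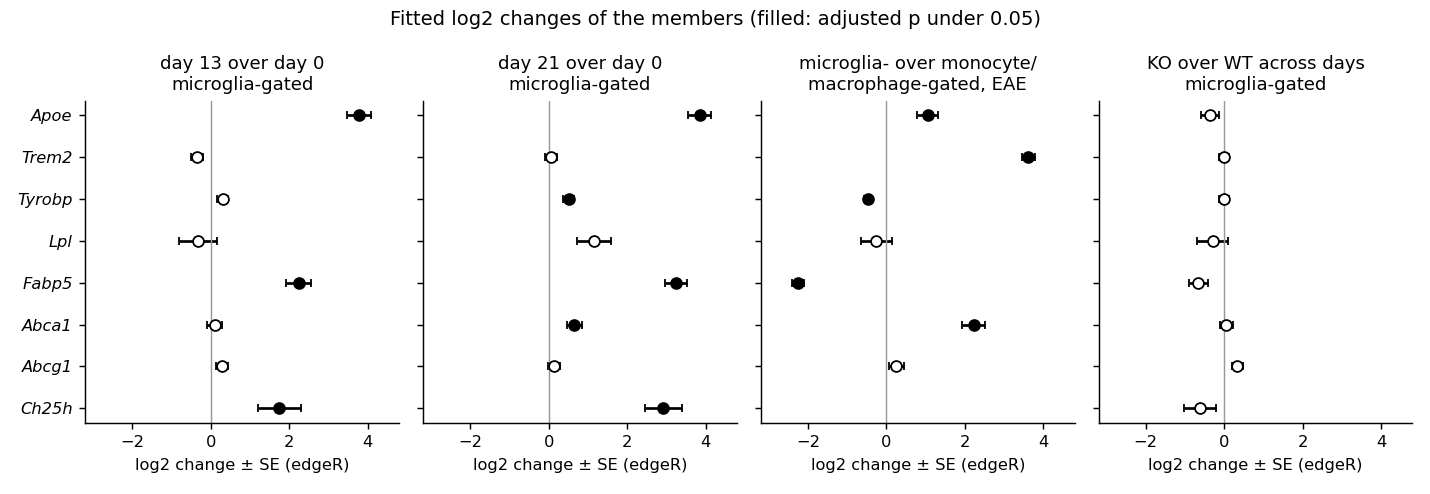
Log2 changes of the 8 genes in microglia-gated cells for day 13 over day 0, day 21 over day 0 and KO over WT across days (6 libraries), and for microglia-gated over monocyte/macrophage-gated cells in the 4 EAE libraries, from edgeR's quasi-likelihood fits. Points are estimates, bars are standard errors, and filled points passed an adjusted p of 0.05. No point is filled for genotype, while Apoe, Fabp5 and Ch25h are filled on both EAE days.

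Other genes of the same pathways in microglia-gated cells were read from lists of known function. Of 16 tested genes of lipid uptake and storage, 7 rose and 1 fell on day 13 and 5 rose and 1 fell on day 21 over day 0, where 16.6% of all genes rose and 12.8% fell on day 13, and 9.34% rose and 4.17% fell on day 21. These shares of all genes are also the background of the shorter lists. The list's median log2 change was 0.47 on day 13 and 0.38 on day 21, against −0.016 and −2e-05 over all genes tested. Cd36, a scavenger receptor for oxidised lipoprotein, rose by 6.26 on day 13 and 4.68 on day 21 on the log2 scale, and Plin2, which coats lipid droplets, by 1.59 and 0.71. Npc2, which hands cholesterol out of lysosomes, rose by 1.51 and 1.24, and Psap, the precursor of lysosomal lipid-degrading cofactors, by 1.09 and 0.73. Msr1, another scavenger receptor, rose on day 13 (3.12) and was lower on day 21 than on day 13 (−2.25). Mgll, which cleaves monoacylglycerol, was the one that fell (−1.60 and −0.95). Of 12 other LXR targets and receptors, Apoc1, an apolipoprotein made from the gene next to Apoe, rose by 5.04 and 4.32, and Mylip (−0.74) and Lpcat3 (−0.64), both LXR targets, fell on day 13. Of 17 tested genes of cholesterol synthesis, Pmvk rose (1.22) and Hmgcs1 fell (−0.92) on day 13, and 0 passed on day 21. A further list held partners of Trem2 and Tyrobp, signalling genes and other genes of the Trem family. Of its 11 tested genes, Treml2, of the Trem family, rose on both days (2.94 and 2.26) and Hcst rose on day 13 (0.72). The kinase gene Btk fell on both days (−0.49 and −0.53). Gpr183, the receptor for an oxysterol made from the product of Ch25h, fell by 1.83 on day 13 and 1.13 on day 21.

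Between genotypes, 5 members were higher in KO on some days and lower on others, while Abcg1 was higher and Fabp5 and Ch25h were lower on all 3 days, not always beyond counting error. On day 0, Apoe was 1.42 times as high in KO as in WT microglia (95% counting interval 1.35 to 1.49), Abcg1 1.33 times (1.1 to 1.59) and Lpl 0.48 times (0.38 to 0.61). On day 13, Apoe was 0.62 times (0.60 to 0.63) and Lpl 0.33 times (0.18 to 0.56) the WT level, from 16 KO and 99 WT UMIs of Lpl. On the same day Abca1 was at 0.71 times (0.53 to 0.93) and Abcg1 at 1.44 times (1.1 to 1.88) the WT level. On day 21, Apoe was 0.60 times (0.58 to 0.61) and Fabp5 0.50 times (0.36 to 0.68) the WT level, while Lpl was 2.93 times (2.09 to 4.24) and Abca1 1.5 times (1.19 to 1.90). Abcg1 was at 1.12 times (0.84 to 1.5) on day 21, and Abca1 at 1.09 times (0.92 to 1.28) on day 0. Trem2 was 1.04, 0.89 and 1.17 times the WT level on days 0, 13 and 21, and Tyrobp 1.02, 0.98 and 1.1 times. Fabp5 was at 0.78 times (0.38 to 1.54) on day 0 and 0.98 times (0.59 to 1.59) on day 13. Ch25h was at 0.34, 0.94 and 0.74 times the WT level on days 0, 13 and 21, and all 3 intervals held 1, so a difference was not detectable at this depth.

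Members past 1.5-fold, among those with 10 CPM or more in either library, numbered 0 higher and 1 lower of 6 on day 0, where 1.60% of all genes measured alike were higher and 0.826% lower. They numbered 0 higher and 2 lower of 7 on day 13 (all genes 4.16% higher and 4.34% lower), and 1 higher and 2 lower of 8 on day 21 (all genes 9.97% higher and 5.93% lower). The test across days found 0 members and 0 of 9998 genes (0.00%) called for KO over WT at an adjusted p of 0.05. DESeq2 also called 0, and the unadjusted p was under 0.05 for 318 genes with edgeR and 69 with DESeq2. Apoe was at −0.36 ± 0.22, Fabp5 at −0.66 ± 0.24, Abcg1 at 0.34 ± 0.13 and Ch25h at −0.61 ± 0.40 on the log2 scale in this fit. Trem2 was at −0.0009, Tyrobp at 0.0059 and Abca1 at 0.059. This model holds the genotype difference equal on all days, and with 1 library per group a genotype difference that changes with day could not be tested. Lpl, at −0.29 ± 0.39, was called lower in KO when either day 21 library was left out (−1.21 without KO and −1.20 without WT). In these fits 0.387% and 0.237% of all genes were called. Both take the genotype difference from days 0 and 13 alone, so they are not separate results.

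**Figure D3:**
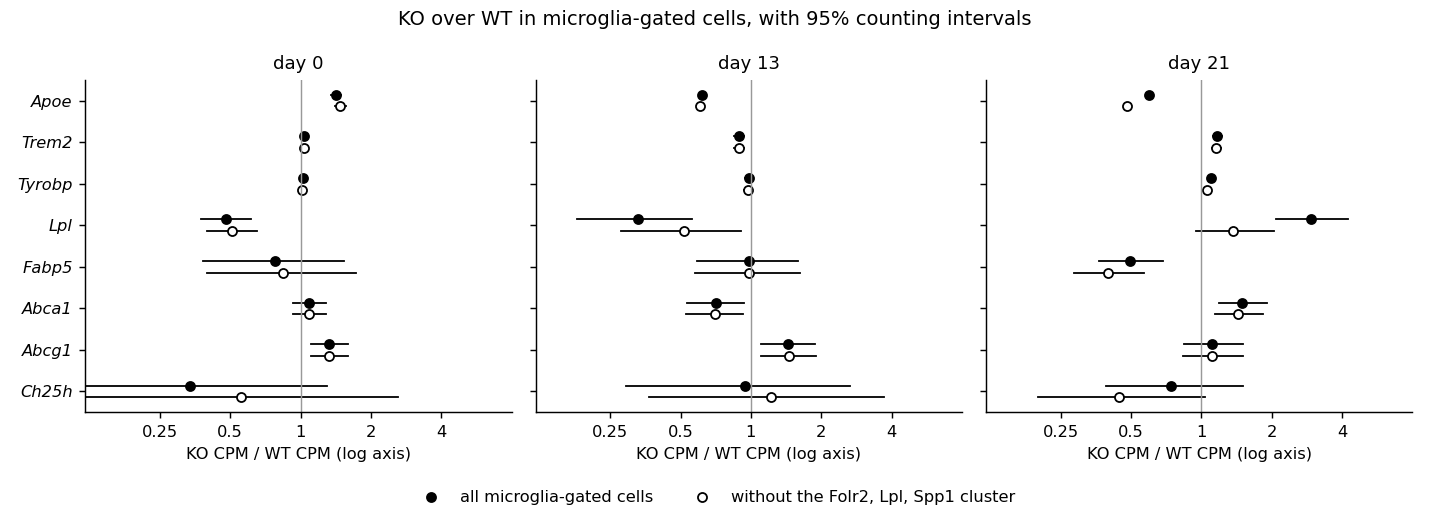
Ratio of KO over WT level of each gene in microglia-gated cells on days 0, 13 and 21, on a log axis, with 95% counting intervals. Filled points take all microglia-gated cells, open points leave out the small cell cluster led by Folr2, Lpl and Spp1, and the intervals of Ch25h on day 0 run off the axis. Apoe lies above 1 on day 0 and below 1 on days 13 and 21, and Lpl lies below 1 on days 0 and 13 and above 1 on day 21.

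The day 21 value of Lpl in KO, and part of its day 13 value in WT, rested on few cells. Clustering of all cells by expression left the members and the pathway lists out of its variable genes. It set apart a cluster of 180 cells led by Folr2, Lpl and Spp1, and is used only as a description. Leading genes were ranked over all genes, members included. By marker score the cluster was nearest to border-associated macrophages, with 5 of 8 markers raised and Pf4 and Mrc1 in its top 10 genes. Of its 180 cells, 150 passed the microglial gate and 30 were ungated. The 150 had a median of 9 of 10 microglial markers and 1 of 8 border-associated macrophage markers. Which cell type the cluster holds was not tested. Of microglia-gated cells it held 5, 3 and 128 in KO and 4, 6 and 4 in WT on days 0, 13 and 21, so 7.49% of the KO microglia-gated cells of day 21. These 128 cells held 268 of 449 Lpl UMIs (59.7%), 22 of 41 Ch25h UMIs (53.7%), 41 of 131 Fabp5 UMIs (31.3%) and 9981 of 34440 Apoe UMIs (29.0%) of that library's microglia-gated cells. Their level was 20066 CPM for Apoe and 539 CPM for Lpl. On day 13, 6 WT cells of the cluster held 36 of 99 Lpl UMIs (36.4%), and without the cluster the Lpl ratio was 0.52 (0.28 to 0.91). Without it, the KO over WT ratio on day 21 was 1.37 for Lpl (0.95 to 2.04) and 0.48 for Apoe, 0.40 for Fabp5, 1.44 for Abca1 and 1.16 for Trem2.

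Most other microglia-gated cells fell into 3 clusters, in proportions that differed between the libraries of day 21. One led by Adamts1, Tmx4 and Fosb held 85.5% of KO and 90.8% of WT microglia-gated cells on day 0. The shares of one led by Ttr, Cxcl13 and Ccl12 were 76.6% in KO and 74.1% in WT on day 13, against shares on day 21 of 9.65% in KO and 55.8% in WT. The last, led by Olfml3, Ltc4s and Gas6, made up 74.6% of KO and 36.8% of WT microglia-gated cells on day 21. In the first, Apoe on day 0 was 481 CPM in KO and 437 CPM in WT, a ratio of 1.1. In the second it was 7154 CPM in KO and 12758 CPM in WT on day 13 (ratio 0.56, 0.55 to 0.58) and 11797 CPM in KO and 14673 CPM in WT on day 21 (0.80, 0.78 to 0.83). In the cluster led by Olfml3 it was 4631 CPM in KO and 5614 CPM in WT on day 21 (0.82, 0.79 to 0.86), and 3014 CPM in KO and 3504 CPM in WT on day 13 (0.86). On day 0, in 158 KO and 95 WT cells of that cluster, it was 1874 CPM in KO and 638 CPM in WT. In a small cluster led by Cenpf, with 16 KO and 45 WT cells on day 13, it ran the other way, at 6644 CPM in KO and 3367 CPM in WT. Apoe was thus lower in KO within the clusters led by Ttr and by Olfml3 on day 21, at ratios nearer to 1 than the 0.60 of the whole class. How much of the class ratio comes with the unequal cluster shares was not tested. Lpl in the cluster led by Olfml3 was 35.6 CPM in KO and 5.06 CPM in WT on day 21, the WT value resting on 2 UMIs (ratio 7.04, 1.91 to 58.7), and Ch25h in the cluster led by Ttr was 33.5 CPM in KO and 5.82 CPM in WT (17 and 4 UMIs).

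**Figure D4:**
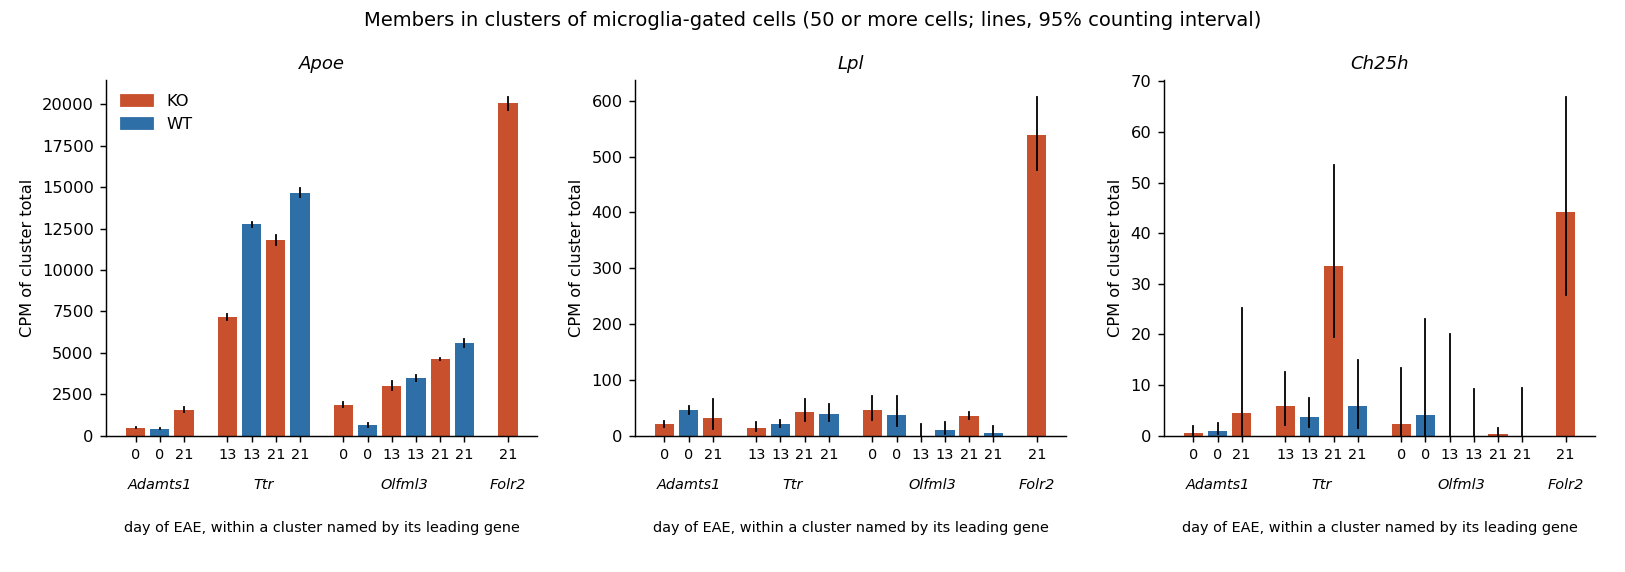
Level of Apoe, Lpl and Ch25h in microglia-gated cells by expression cluster (named by its leading gene) and day, in CPM of the cluster total, KO in red left of WT in blue, for clusters with 50 or more cells in a library. Bars are levels and lines are 95% Poisson intervals for counting error. The cluster led by Folr2 is drawn for KO day 21, where it held 128 cells, and has the highest Apoe and Lpl bars.

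Across cell classes, the members differed in where they were expressed. In the 4 EAE libraries, microglia-gated cells were set against monocyte/macrophage-gated cells of the same library, cells with markers such as Ly6c2 and Ccr2 that enter the brain from blood. Trem2 was higher in microglia by 3.62 ± 0.16 on the log2 scale (adjusted p = 3.34e-08), Abca1 by 2.22 ± 0.29 (adjusted p = 7.00e-05) and Apoe by 1.05 ± 0.26 (adjusted p = 0.0055), by edgeR with library as a block. Fabp5 was lower in microglia by 2.25 (−2.25 ± 0.15, adjusted p = 6.26e-07) and Tyrobp by 0.47 (−0.47 ± 0.10, adjusted p = 0.00178). Lpl (−0.26, adjusted p = 0.61) and Abcg1 (0.25, adjusted p = 0.28) did not pass, and Ch25h was too low to be tested. That is 3 members higher and 2 lower of 7, where 29.6% of the 8536 genes tested were higher and 28.0% lower. The Apoe call was lost when classes were taken from clusters in place of the gate (0.29, adjusted p = 0.25), and Lpl was called lower in microglia with clusters (−1.02), with the stricter gate (−1.91), without the cluster led by Folr2 (−0.74) and without the KO library of day 21 (−0.76).

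The levels behind these tests show that the receptor and the adaptor parted. Trem2 had 153 and 139 CPM in KO and 135 and 122 CPM in WT monocyte/macrophage-gated cells on days 13 and 21, and 3.08 to 58.4 CPM in neutrophil-, T- and B-gated cells. Tyrobp had 3417 and 4080 CPM in KO and 3555 and 3845 CPM in WT monocyte/macrophage-gated cells, 3068 to 3768 CPM in neutrophil-gated cells and 4604 CPM in the plasmacytoid dendritic cells of KO day 13. Tyrobp in T- and B-gated cells was 60.5 to 249 CPM. Fabp5 in monocyte/macrophage-gated cells was 104 and 110 CPM in KO and 79.4 and 176 CPM in WT on days 13 and 21, above the microglial levels of the same libraries. Abca1 there was 19.0 and 10.4 CPM in KO and 13.3 and 7.44 CPM in WT, below them. Ch25h had 2 and 0 UMIs in KO and 0 and 5 UMIs in WT monocyte/macrophage-gated cells on days 13 and 21, and 0 UMIs in T-, B-, neutrophil- and plasmacytoid dendritic-gated cells.

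**Figure D5:**
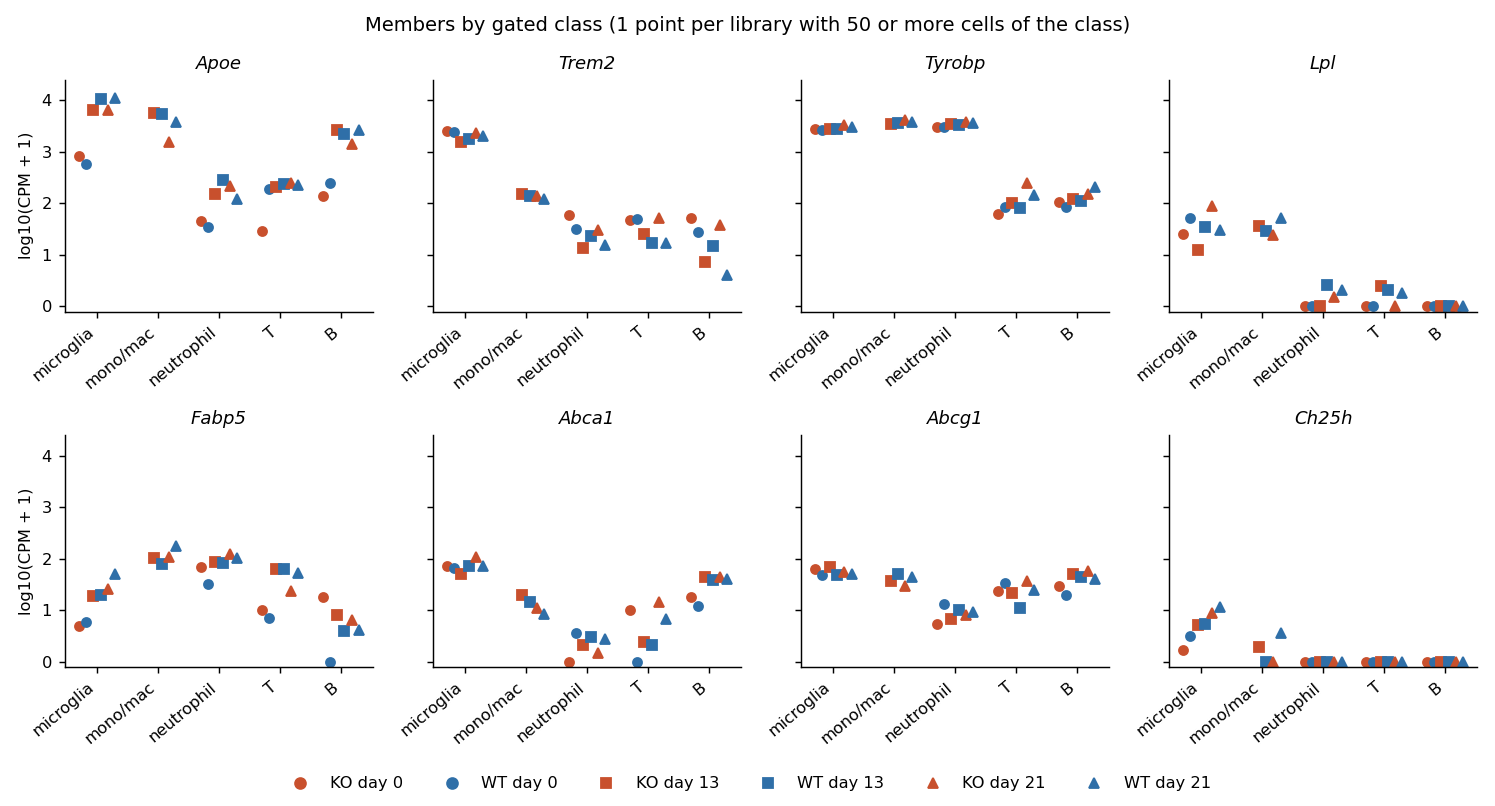
Level of each gene by gated cell class and library, as log10(CPM + 1) of the class total, KO in red and WT in blue with a marker shape for each day, for class-by-library sums of at least 50 cells. Trem2 is highest in microglia, Tyrobp is at a like level in microglia, monocytes/macrophages and neutrophils, and Apoe is high in microglia, monocytes/macrophages and B-gated cells in EAE.

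B-gated cells were the other class with high Apoe in EAE, although B lymphocytes are not usually described as an Apoe source. They had 139 CPM in KO and 246 CPM in WT on day 0, 2714 CPM in KO and 2182 CPM in WT on day 13, and 1435 CPM in KO and 2623 CPM in WT on day 21. T-gated cells of the same libraries had 27.9 to 251 CPM and neutrophil-gated cells 33.9 to 282 CPM, so the level in B-gated EAE cells lay above both. In thinned B-gated cells the share with an Apoe UMI was 67.8% and 57.9% in KO on days 13 and 21, against 70.0% and 69.5% in WT (unthinned 76.6% and 64.6% in KO, and 79.6% and 74.8% in WT). On those days 13.8% to 23.4% of thinned T-gated cells had one. The summed microglial markers in B-gated cells were 606, 135 and 321 CPM in KO on days 0, 13 and 21 and 451, 199 and 129 CPM in WT. The summed monocyte/macrophage markers in them were 970, 2316 and 995 CPM in KO and 985, 2022 and 2054 CPM in WT. The part of RNA from either class in the Apoe level of B-gated cells was not tested. B-gated cells also had 38.0 to 43.6 CPM of Abca1 and 40.03 to 57.4 CPM of Abcg1 in EAE and 0 UMIs of Lpl in all 6 libraries. At 90% or more in each EAE library, B-gated cells lay in a cluster led by the immunoglobulin genes Ighg2b, Igkc and Ighg2c. Its further leading genes included Fcmr, Jchain and Ighd, and which stage of B-lineage cell it holds was not tested. That cluster had 263 CPM of Apoe in KO and 580 CPM in WT on day 0. On day 0, 54.7% of KO and 58.1% of WT B-gated cells lay in a cluster led by Vpreb3, Ebf1 and Myl4, genes of developing B cells, at 32.1 CPM of Apoe in KO and 48.3 CPM in WT.

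In the other classes 0 members passed the test between genotypes, although Apoe differed within day 21. Apoe in monocyte/macrophage-gated cells was 5602 CPM in KO and 5453 CPM in WT on day 13 (ratio 1.03), and 1530 CPM in KO and 3769 CPM in WT on day 21 (0.41, 0.38 to 0.44), from 86 KO and 440 WT cells. Lpl (0.44, 0.21 to 0.82) and Fabp5 (0.62, 0.46 to 0.84) were also lower in KO in this class on day 21, where 30.4% of all genes lay past 1.5-fold in either direction. In B-gated cells Apoe was 1.24 times the WT level on day 13 and 0.55 times on day 21, and in neutrophil-gated cells 0.54 and 1.78 times. The test across days called 0 members in monocyte/macrophage-gated, neutrophil-gated, T-gated and B-gated cells, where it called 0.00%, 0.0179%, 0.513% and 0.0441% of all genes. Apoe in monocyte/macrophage-gated cells stood at −0.62 ± 0.22 on the log2 scale (unadjusted p = 0.0079, adjusted p = 0.9998 by edgeR), and 265 of 7907 genes had an unadjusted p under 0.05 there. DESeq2 called 0 genes in that class. In neutrophil-gated cells Apoe (0.88) and Trem2 (1.09) were called higher in KO when the WT library of day 13 was left out, where 2.75% of all genes were called.

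For the pathway lists, 0 genes were called between genotypes in microglia-gated cells, and within day 21 the genes furthest from equal lay in both directions. Apoc1 was at 0.27 times the WT level in KO (0.16 to 0.46, from 36 KO and 31 WT UMIs), the same direction as Apoe. Cd36 was at 0.19 times (0.11 to 0.32, from 30 KO and 37 WT UMIs). Plin3, another lipid droplet protein, was at 0.51, Treml2 at 0.46, and Pmvk and Fdps, enzymes of the mevalonate pathway, at 0.41 and 0.53. Gpnmb, a lysosomal membrane protein gene and one that leads the cluster with Folr2, was at 3.17 (1.17 to 12.1). That ratio rests on 54 KO and 4 WT UMIs. Gpr183 was at 2.30 (114 CPM in KO and 49.8 CPM in WT), Npc1, the partner of Npc2, at 1.66, and Lpcat3 at 1.56. Between classes, 14 of 17 cholesterol synthesis genes were lower in microglia than in monocytes/macrophages and 1 was higher, with a list median of −1.17 on the log2 scale, against 0.05 over all genes tested. Mvd (−2.43), an enzyme of the mevalonate pathway, was among the lower ones, and Dhcr7 (0.97), which makes cholesterol from its last precursor, was the higher one. Over all genes 29.6% were higher and 28.0% lower. Of 17 lipid uptake and storage genes 5 were higher (Mgll 6.92) and 8 lower (Msr1 −3.37, Dgat2 −3.27). Of 11 LXR genes 3 were higher (Mylip 3.61) and 4 lower (Smpdl3a −4.35, Pltp −2.83). Of 12 genes of the list of Trem2 and Tyrobp partners, signalling and Trem-family genes, 5 were higher (Pik3r1 2.33, Inpp5d 1.70) and 4 lower (Trem1 −3.33, Trem3 −3.57).

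As a description of likeness, Pearson correlations of log2(CPM + 1) were taken over 29 class-by-library sums, which share libraries, against 7228 genes. Trem2 followed Csf1r (0.98), C1qb and Rab3il1 most closely, and Tyrobp followed Alox5ap (0.97), Fcer1g and I830077J02Rik. Apoe was nearest to Tlr1 (0.87), H2-DMa and Cd86, and Lpl to Fcgr1 (0.95), Lamp1 and Cd302. Fabp5 was nearest to Arpc1b (0.89), Aprt and Ero1l, Abca1 to Cd83 (0.92), Dnase2a and Tbc1d14, and Abcg1 to Dpm1 (0.91), P2rx4 and Cd2ap. Ch25h was nearest to Ccl7 (0.89), Ccl12 and Ntpcr. Its mean was 1.16 CPM, and it was at 0 in all T-, B-, neutrophil- and plasmacytoid dendritic-gated sums. Its correlations thus rest mainly on whether a sum was of microglia. No gene was among the 3 nearest of more than 1 member.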

How the data were processed

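Single-cell 3′ libraries were processed with Cell Ranger 2.0.2 against mm10, per the submitters' processing notes. The authors deposited 1 matrix of raw UMI counts per library, with its genes and barcodes. The members and the pathway and marker lists were chosen with earlier results of these data known. The per-cell scoring rule of the gate was set with the data in hand. Of 20030 barcodes, 20007 had 200 or more genes and no more than 10% mitochondrial UMIs and entered the analysis. No doublet caller was run: cells with more than 2 markers of another class were left ungated. Of such cells 2365 had enough microglial markers, 1761 of them with T-cell markers. In KO on days 0, 13 and 21 these numbered 62, 464 and 301, beside 1211, 431 and 1710 microglia-gated cells. In WT they numbered 90, 524 and 924, beside 1352, 902 and 500. The part of this unequal loss in the KO over WT ratios was not tested. Gates assigned 12692 cells, and 64 microglia-gated cells lay at the lower limit. Siglech is in both the microglial and the plasmacytoid dendritic list. Counts were summed per class and library and given as CPM of the class total, with exact Poisson, conditional or binomial 95% intervals, which cover counting error only. Depth per library was 6321841 to 24243660 UMIs.

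Tests were made with edgeR 4.0.16 (TMM, quasi-likelihood, R 4.3.3) on sums of at least 50 gated cells, adjusted over all genes by Benjamini-Hochberg, with genotype and day as terms over 6 libraries (4 for monocyte/macrophage-gated cells), or with library and class as terms over 4 EAE libraries. P-values measure the spread between libraries after these terms. The genotype fit in microglia-gated cells was tested on simulated data, with 2-fold and 4-fold changes in well-counted genes. The day and class contrasts and low-count genes such as Ch25h were not covered. Alternatives were RLE size factors, DESeq2 1.42.0, no low-count filter, a stricter gate, clusters (leidenalg 0.10.2) in place of the gate, leaving out each library, and, chosen after seeing the data, leaving out the cluster led by Folr2, Lpl and Spp1. The naming rule takes all 8 members in every comparison (outside microglia partly as counts and ranges), up to 4 genes of each other list by their day 21 ratio, any gene of a list that passed a test, and 3 most-like genes per member; from long lists the text gives examples. Apoc2 has 2 rows and was not used here, and 1 gene of the cholesterol list is not reported here by name. Promoters of Tyrobp, Lpl, Fabp5 and Abcg1 were not analysed here.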

Additional observations from a re-analysis of the deposited data

How the results depend on the processing

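No paired analysis was possible because each genotype and day has 1 library: the number that libraries share in their titles is that of the day, which is already a term of the genotype fit. Among the members in microglia-gated cells, genotype calls numbered 0 in the fit used and 0 to 1 when each library was left out in turn. The 1 was Lpl without either day 21 library, where the difference comes from days 0 and 13 alone. Day 13 over day 0 had 3 calls (29.4% of all genes) and 4 with clusters (Lpl added as lower, 28.2%). It had 5 without either day 21 library, where 40.3% (without KO) and 39.0% (without WT) of all genes were called. Ch25h was lost without any 1 of the day 0 or day 13 libraries. Day 21 over day 0 had 5 calls, 3 with DESeq2, 3 without the cluster led by Folr2 (Tyrobp and Abca1 lost in both), 4 with clusters (Tyrobp lost), and 3 to 6 with a library left out. Day 21 over day 13 had 0 calls, and 3 with no low-count filter (Lpl, Fabp5 and Abca1), where 3.79% of all genes were called. It had 0 without either day 0 library, and members called without a day 13 or day 21 library are named above. The class contrast had 5 calls (57.6% of all genes), and 5 to 6 with a library left out (48.2% to 57.1%). With clusters it had 5 that lacked Apoe and added Lpl (62.0%). Monocyte/macrophage-gated cells had 0 genotype calls and 1 with no filter (Apoe, −0.65), where 0.100% of all genes were called. Neutrophil-gated cells had 2 without the WT library of day 13 (Apoe and Trem2, where 2.75% of all genes were called), and 0 without any other library. Within day 13, 2 members lay past 1.5-fold, and 1 with clusters. Over all genes, day 13 over day 0 had 2937 calls with edgeR and 1408 with DESeq2, day 21 over day 0 had 1351 and 666, and genotype had 0 and, with no filter, 71.

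Signs turned for members without a call. Trem2 between genotypes was 0.0022 with RLE, 0.0023 with DESeq2 and 0.012 with no filter, and Tyrobp −0.032 with the stricter gate, −0.043 with clusters and −0.016 without the cluster led by Folr2. Apoe from day 13 to day 21 was −0.17 with the stricter gate, −0.055 with clusters and −0.086 without that cluster. Ch25h in that contrast was −0.17 with clusters, and Abcg1 in the class contrast −0.048 with clusters. With a library left out, the genotype change ran from −0.070 to 0.092 for Trem2, −0.016 to 0.036 for Tyrobp, −1.21 to 0.24 for Lpl and −0.13 to 0.28 for Abca1. Day 13 over day 0 ran from −1.50 to 0.45 for Lpl and −0.36 to 0.42 for Abca1, and day 21 over day 0 from −0.044 to 0.16 for Trem2, −0.52 to 2.15 for Lpl and −0.0089 to 0.37 for Abcg1. Day 21 over day 13 ran from −0.33 to 0.39 for Apoe, −0.082 to 2.59 for Lpl and −0.30 to 0.068 for Abcg1, and the class contrast from −0.76 to 0.15 for Lpl.
Within-day ratios in microglia-gated cells kept their direction for Apoe, at 1.15 to 1.48 on day 0, 0.56 to 0.66 on day 13 and 0.46 to 0.60 on day 21 over the settings tried. The cause of these shifts was not tested.

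Leaving out a library was not run in monocyte/macrophage-gated cells, nor was the stricter gate there and in neutrophil-gated cells, since too few sums were left to estimate the spread. One library per group, the low UMI counts of Ch25h, Fabp5 and Lpl, and unequal shares of the clusters between the day 21 libraries limit these results. So do the unequal numbers of cells with enough microglial markers that were left ungated.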
